A study of Homo sapiens with 15 samples.

Results

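The miRNAs described here are the 5p arms of the human hairpins miR-6715 to miR-6895, that is, every miRNA of the counts whose name carries a number in that range, with any letter, and ends in -5p. They numbered 175 of the 2418 miRNAs counted in the FTO knockdown libraries and 167 of the 2189 counted in the RNA immunoprecipitation (RIP) libraries. All 167 stood in both counts, and miR-6736-5p, miR-6754-5p, miR-6776-5p, miR-6777-5p, miR-6799-5p, miR-6801-5p, miR-6811-5p and miR-6842-5p stood in the knockdown counts alone. The study asked whether mature miRNAs carry N6-methyladenosine (m6A) and whether their levels change when the demethylase FTO is depleted. The cells were of 3 clones named FTO1C1, FTO2D4 and FTO3C3, all made from the Flp-In 293 T-Rex line and kept uninduced. The labels call them derivatives of HEK293, a line from human embryonic kidney. For the knockdown, each clone was transfected with 10 nM of FTO siRNA (kd) or of scrambled siRNA (scr), and small RNA was taken after 48 h. For RIP, small RNA of each clone, labelled as without treatment, was precipitated with an anti-m6A antibody or with a control IgG, or was sequenced as input. Each of the 5 groups therefore held 3 libraries, 1 per clone, and the clones share 1 parental cell line. FTO mRNA was not measured in these libraries, so the counts hold no check of the knockdown itself. The paper reported reduced FTO mRNA by qRT-PCR and reduced FTO protein by Western blot in these clones.

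Mirtrons are miRNAs whose precursor hairpin is a short intron that splicing releases from a host transcript, so that the hairpin ends at the splice acceptor and needs no cut by Drosha. In mirtrons of mammals the 5p arm is often rich in G and the 3p arm rich in C and U. m6A is a methyl mark that enzymes place on adenosines, in mRNA mostly where an A or a G precedes the modified A and a C follows it, and FTO is an enzyme that can remove it. In RIP, RNA bound by the antibody is read against the input and against RNA held by a control antibody.

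Most of the hairpins bore the mark of an intron end. A sequence was found in the RefSeq table (GRCh38.p14) for 149 of the 175 members, and a hairpin for 141. Of these hairpins, 128 (90.8%) ended in AG, the letters of a splice acceptor, against 135 of the 1419 other hairpins of the table (9.51%). Only 15 (10.6%) began with GU, and 11 (7.80%) had both ends. The letters of an intron end were thus common at the 3′ end and not at the 5′ end. What a label of mirtron rests on was not examined. The mature sequence lay within the range of a protein-coding gene for 146 of the 149 members. Ranges were matched by position without regard to strand, and the share for other miRNAs was not taken. Exons and introns were not read from an annotation here.

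The members were rich in G. Their median share of G was 50%, against 15% for the 3p arms of the same hairpins and 27.3% for all other miRNAs counted. A run of GGGG stood in 71 members (47.7%), in 1.42% of the 3p arms and in 10.2% of the other miRNAs. The median share of A was 20%, close to the 22.7% of the other miRNAs, and AAC or GAC, the core of the m6A motif of mRNA, was held by 41 members (27.5%) against 39.1% of the others. The median length was 22 bases, with a range of 19 to 25. No member with a sequence shared an unbroken run of 17 bases with any of 2122 other mature sequences. The authors assigned reads by several shorter matches that together covered 17 bases, so reads shared between relatives are not excluded by this.

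The sequences that carry the results follow, 5′ to 3′ with the seed (bases 2 to 8, the part that pairs with a target mRNA) in capitals. The first 5 were enriched more than 10-fold in the m6A precipitates over IgG, the next 3 were the most abundant in the input, the following 5 rose in the knockdown, and miR-6757-5p spread widely between clones. The last pair share a seed with miR-6758-5p and miR-6822-5p, respectively.
miR-6806-5p: uGUAGGCAugaggcagggcccagg
miR-6894-5p: aGGAGGAUggagagcugggccaga
miR-6788-5p: cUGGGAGAagaguggugaaga
miR-6891-5p: uAAGGAGGgggaugagggg
miR-6797-5p: aGGAGGGAaggggcugagaacagga
miR-6816-5p: uGGGGCGGggcaggucccugc
miR-6822-5p: cAGGGAACcaguuggggcuu
miR-6772-5p: uGGGUGUAggcuggagcugagg
miR-6763-5p: cUGGGGAGuggcuggggag
miR-6869-5p: gUGAGUAGuggcgcgcggcggc
miR-6758-5p: uAGAGAGGggaaggaugugaugu
miR-6853-5p: aGCGUGGGauguccaugaagucag
miR-6789-5p: gUAGGGGCgucccgggcgcgcggg
miR-6757-5p: uAGGGAUGggaggccaggauga
miR-6856-5p: aAGAGAGGagcaguggugcugugg
miR-6750-5p: cAGGGAACagcugggugagcugcu

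In GRCh38.p14, miR-6806-5p lies on the plus strand at chr19:58334693-58334716, within the range of ZSCAN22, a zinc finger gene. miR-6816-5p lies on the minus strand at chr22:20114726-20114746, within the range of TRMT2A, a tRNA methyltransferase gene. miR-6757-5p lies on the plus strand at chr12:53056949-53056970, within the range of TNS2, which encodes a tensin of focal adhesions. miR-6763-5p lies on the plus strand at chr12:132582002-132582020, within the range of FBRSL1. miR-6869-5p lies on the minus strand at chr20:1392940-1392961, within the range of FKBP1A, the gene of the FK506-binding protein FKBP12. The seeds repeated the same letters. GGG stood in the seed of 97 members (65.1%), against 13.4% of the other miRNAs. There were 138 distinct seeds, of which 10 were shared by at least 2 members. The seed UGGGGUG was common to miR-6737-5p, miR-6812-5p and miR-6819-5p.

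Levels are given as RPM, the reads on a miRNA per 1000000 miRNA reads of its library. The totals ran from 1991317 to 3876806 reads in the kd and scr libraries, from 1408702 to 1500357 in the inputs, from 569501 to 4973238 in the m6A and from 186446 to 786688 in the IgG precipitates. Members held 0.708% to 1.31% of the reads in the knockdown libraries, 0.647% to 0.787% in the inputs, 0.775% to 1.17% in the IgG and 1.52% to 1.88% in the m6A libraries. In the shallowest library, IgG of FTO3C3, the median member had 6 reads and 8 members had none, so a small difference there was not detectable. A single miRNA that is not a member, miR-6080, took 41.3% to 47.8% of the m6A reads, 58.0% to 71.6% of the IgG reads and 15.5% to 28.4% of the input reads. Its count was exactly 563404 in both the m6A and the IgG library of FTO2D4. Which of these entries is right cannot be told from the counts, so the numbers of members called in RIP are also given with totals that leave miR-6080 out, and a named RIP call that was lost there or without FTO2D4 is stated beside it.

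Most members were scarce, and a few made up most of the reads. In the scr libraries the median member had a mean of 12.8 RPM against 15.1 for all miRNAs and 7.68 for the 3p arms, and the 10 highest members held 68.9% of the reads on members. At least 15 RPM in all 3 scr libraries, the limit the study set for an expressed miRNA, was reached by 55 members (31.4%), against 42.7% of all miRNAs counted. In the inputs the median member had 11.3 RPM and the 10 highest held 67.8%. The m6A libraries were more even, with a median of 59.9 RPM and 27.8% in the 10 highest.

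miR-6816-5p was the highest in the inputs, with 1781, 2449 and 1661 RPM in FTO1C1, FTO2D4 and FTO3C3. It had 635, 1077 and 723 RPM in the scr libraries and 843, 1277 and 783 RPM in the kd libraries. In every clone it was thus among the abundant members. miR-6789-5p had 648, 1025 and 796 RPM in scr. miR-6826-5p had 463, 643 and 584 RPM in scr, and miR-6717-5p had 498, 476 and 796 RPM, a range that overlapped those of both others. miR-6822-5p had 1117, 823 and 946 RPM in the inputs but 80.8, 184.7 and 125.5 RPM in scr, 2 sets of libraries that were prepared from differently treated cells.

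miR-6757-5p stood first in scr by its mean but not by its replicates. It had 2015, 364 and 5645 RPM in the scr libraries of FTO1C1, FTO2D4 and FTO3C3 and 404, 1185 and 1151 RPM after FTO siRNA. Its 3p arm stayed between 5.28 and 8.54 RPM in the same 6 libraries. The 5p level therefore differed widely between scr libraries while the 3p level of the same hairpin kept to a narrow range. The scr library of FTO3C3 was also the highest scr library for miR-6859-5p (200.9 RPM against 43.7 and 36.9), miR-6839-5p (259.6 against 72.8 and 87.3) and miR-6817-5p (42.2 against 7.42 and 4.06), the first and last of which were picked after their values were seen. In the inputs, miR-6757-5p had 202, 258 and 971 RPM, again highest in FTO3C3.

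**Figure D1:**
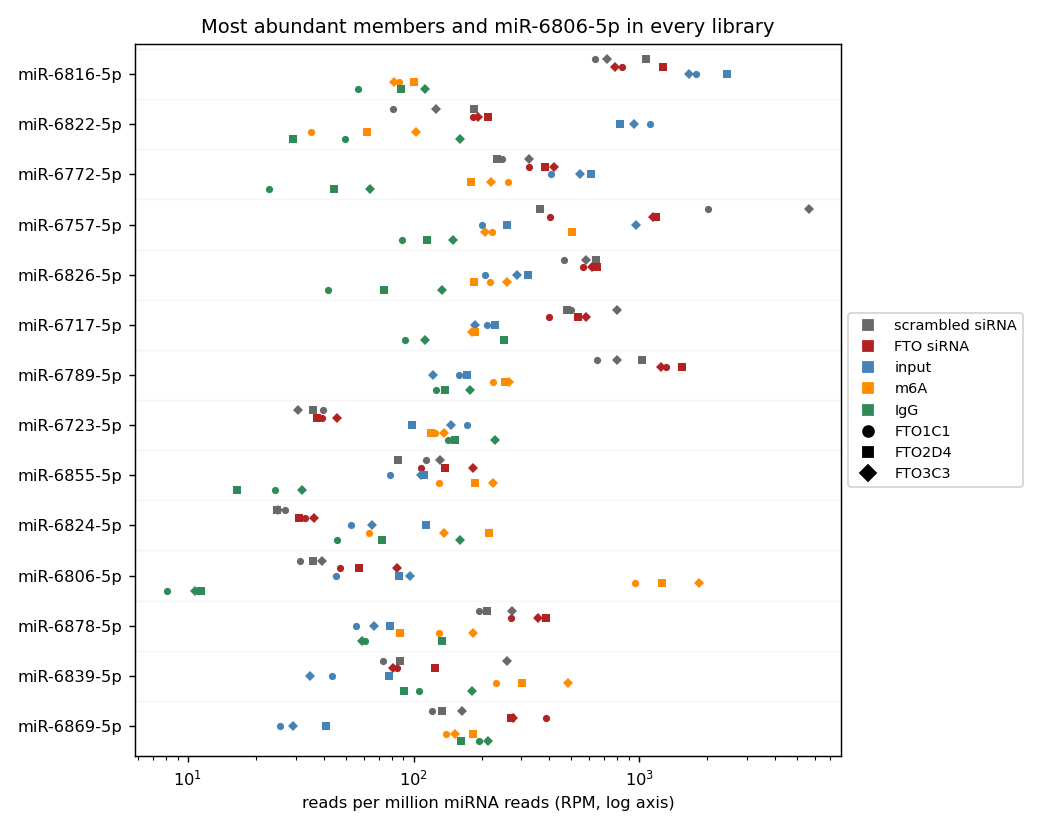
Level in RPM (log axis) of the 10 highest members in scr, the 10 highest in input (13 miRNAs in all) and miR-6806-5p, with colours for the 5 groups and symbols for the 3 clones. miR-6816-5p and miR-6822-5p lie at 823 RPM or more in all inputs and at or below 161 RPM in all precipitates, miR-6806-5p lies at 957 RPM or more in m6A alone, and the scr libraries of miR-6757-5p spread from 364 to 5645 RPM.

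The knockdown comparison asked which miRNAs change when FTO is depleted. 6 members rose and none fell in edgeR's quasi-likelihood test with the clone as a block and a threshold of 0.05 on the adjusted p, that is 3.43% of the 175 members tested. Over all 2374 miRNAs tested 4.97% rose and 0.505% fell, so the share of members that rose was near that of all miRNAs. At an unadjusted p under 0.05, 48 members lay above 0 and none below, against 23.9% and 2.23% of all miRNAs tested. DESeq2, which left 136 members with no adjusted p under its own filter on low counts, 4 of the 6 among them, called 1 member (miR-6869-5p) higher and none lower, against 3.96% and 7.05% of all miRNAs with an adjusted p. The median log2 fold change was 0.31 for the members, 0.30 for the 3p arms and 0.29 for all miRNAs. Under TMM factors, which centre the bulk of miRNAs, these medians became 0.01, 0.01 and 0.00, so a change is best read against this general shift. For 54 members the 3 kd libraries all lay above the 3 scr libraries, against 26.3% of all miRNAs counted, and for none below, against 1.94%.

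miR-6763-5p rose the most of the 6. It had 8.25, 9.33 and 9.54 RPM in scr and 18.7, 21.1 and 26.1 RPM in kd, and the groups did not overlap. The log2 fold change was 1.26 ± 0.21 (SE, n = 3 clones; adjusted p = 0.0118 by edgeR). Its 3p arm, at 27.5, 36.9 and 43.2 RPM in scr and 50.6, 38.1 and 32.0 RPM in kd, overlapped between the groups. miR-6869-5p was the most abundant of the 6 after miR-6789-5p. It had 120, 133 and 165 RPM in scr and 385, 269 and 275 RPM in kd, a rise in every clone, with a log2 fold change of 1.14 ± 0.20 (edgeR adjusted p = 0.0150).

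miR-6758-5p had 9.07, 15.4 and 14.1 RPM in scr and 21.3, 29.2 and 29.4 RPM in kd, with a log2 fold change of 1.06 ± 0.20 (edgeR adjusted p = 0.0175). miR-6856-5p, which has the same seed AGAGAGG, had 29.7, 28.4 and 30.6 RPM in scr and 34.2, 45.1 and 51.6 RPM in kd, and its log2 value of 0.54 ± 0.20 did not pass (edgeR adjusted p = 0.131). Of these miRNAs with 1 seed, miR-6758-5p alone passed the test, and the difference between them was not tested. miR-6853-5p (log2 fold change 1.02 ± 0.23), miR-6848-5p (1.00 ± 0.24) and miR-6789-5p (0.75 ± 0.15) also rose, with edgeR adjusted p values of 0.0361, 0.0408 and 0.0246. The rise of miR-6789-5p took it from 648, 1025 and 796 RPM in scr to 1309, 1542 and 1245 RPM in kd, which made it the highest member there by its mean. By the rule of the study, a mean ratio above 2 with at least 15 RPM in all kd libraries, miR-6763-5p, miR-6869-5p and miR-6758-5p were increased (1.45% of all miRNAs counted met this rule), and no member was decreased (0.165% of all).

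These calls rested on particular libraries and on the scale. Without FTO1C1 none of the 6 was called, nor was any of all miRNAs. Without FTO2D4 or FTO3C3 there were 7 and 10 members that rose, with 3 that fell in the former case. The shares of all miRNAs in the fits without FTO2D4 or FTO3C3 are not given here, so these counts describe the fits and not the members. Under TMM factors miR-6763-5p (edgeR adjusted p = 0.0451) and miR-6869-5p (0.0330) passed, against 0.927% of all miRNAs higher and 1.47% lower, and without the clone as a block the same 2 passed. miR-6757-5p, at ratios of 0.200, 3.26 and 0.204 in FTO1C1, FTO2D4 and FTO3C3, moved both ways (log2 value -1.16 ± 0.70, edgeR adjusted p = 0.321), and it was called lower only where FTO2D4 was left out. miR-6839-5p had ratios of 1.16, 1.43 and 0.313, and its log2 value of -0.30 ± 0.36 did not pass (edgeR adjusted p = 0.610).

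**Figure D2:**
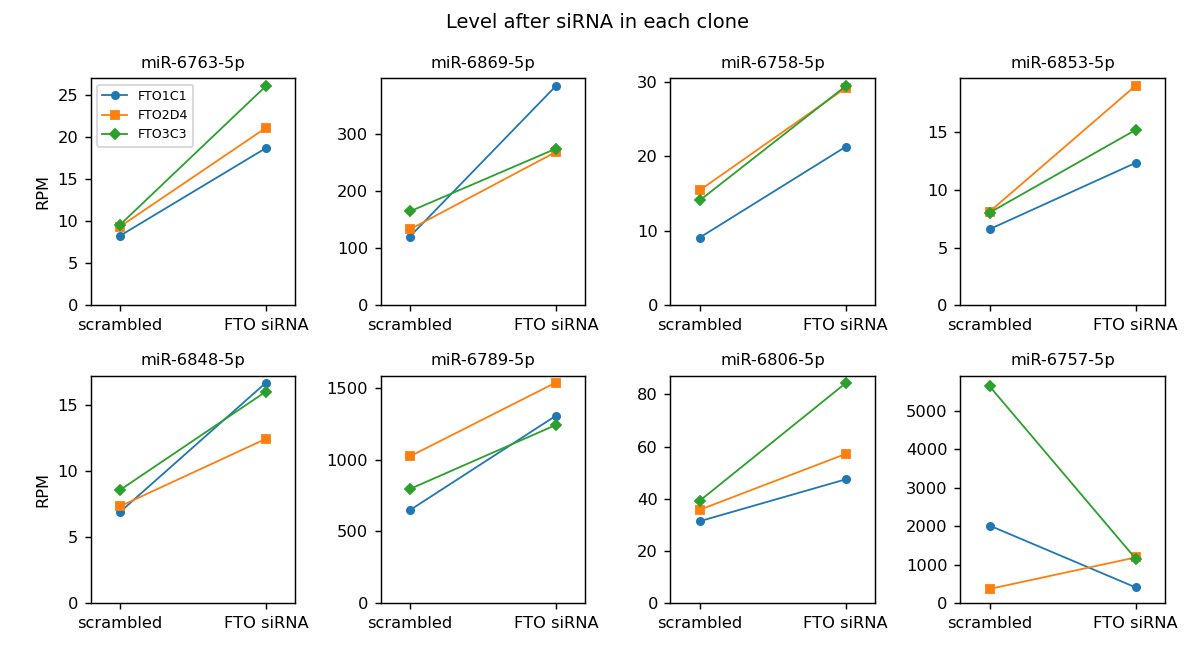
RPM after scrambled and FTO siRNA (linear axes from 0), with lines that join the libraries of 1 clone, for the 6 members that rose, miR-6806-5p and miR-6757-5p. All lines rise in the first 7 panels, and for miR-6757-5p the line of FTO2D4 rises while those of FTO1C1 and FTO3C3 fall.

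The comparison of m6A with IgG precipitates asked which miRNAs the anti-m6A antibody held beyond the control antibody. 72 members (44.4% of 162 tested) were higher in m6A and none was lower by edgeR, against 38.6% higher and 1.27% lower of all miRNAs tested. Without adjustment 86 were higher and 2 lower at p under 0.05, against 45% and 3.51% of all miRNAs. DESeq2 called 23 higher (14.2%) and 10 lower (6.17%), against 17.9% and 12.1% of all miRNAs. For 86 members all m6A libraries lay above all IgG libraries and for 4 below, against 45.9% and 5.48% of all miRNAs counted. The median log2 fold change was 1.01 for the members, 0.83 for all miRNAs and -0.04 for the 3p arms, of which 14 were higher and 4 lower of 113 tested. With totals that leave miR-6080 out, 36 members were higher (23.4%) and 12 lower (7.79%), against 23.4% and 13.5% of all miRNAs, with medians of 0.32 for the members and 0.10 for all miRNAs. Under TMM factors 37 were higher (22.8%) and 12 lower (7.41%), against 22.2% and 15.3%. Without FTO2D4, the clone with the repeated count, 38 were higher (23.9%) and 1 was lower, against 22.8% and 0.7%. The share of members that were higher was thus near that of all miRNAs on each of these settings. The 5 members not tested, miR-6760-5p, miR-6813-5p, miR-6837-5p, miR-6861-5p and miR-6883-5p, had too few reads. Of the 72 members called higher, 20 had under 10 reads in every IgG library and 4 had an IgG count of 0. The median over their IgG libraries was 9 reads. Such members passed the filter on low counts mainly through their m6A reads, where they are high. The same counts over all miRNAs are not given here.

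The rule of the study asked for at least 100 RPM in all m6A libraries and a mean m6A to IgG ratio of at least 2. By this rule 18 members were enriched (10.8% of those counted, against 11.8% of all miRNAs and 5.38% of the 3p arms). As applied here it gave 258 of all miRNAs, more than the list the study published. miR-6894-5p is absent from that list, and the other enriched members are on it. edgeR called all 18 higher, and 14 were at least 2-fold higher in every clone. Both counts use the libraries that the rule used, so they describe the 18 and are not support for them. The same counts for all miRNAs that met the rule are not given here. The calls of miR-6868-5p, miR-6826-5p, miR-6757-5p, miR-6839-5p and miR-6809-5p were lost under TMM factors, under totals without miR-6080 and without FTO2D4, which left 13 in each case, and DESeq2 called 12. The 100 RPM limit was passed by 36 members, against 20.3% of all miRNAs. For 5 of the 18 the mean ratio was above 10, which 5.85% of all miRNAs counted reached under the same rule. IgG counts behind the 18 ran from 1 to 90 reads, so the size of a ratio is less certain than its direction.

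miR-6806-5p, which the study listed among its most enriched miRNAs, stood far above the other members. It had 957, 1262 and 1832 RPM in the m6A libraries of FTO1C1, FTO2D4 and FTO3C3, and 8.09, 11.4 and 10.7 RPM in IgG, from 6, 9 and 2 reads. The ratios of 118, 110 and 171 gave a log2 fold change of 6.94 ± 0.36 (SE, n = 3 clones; edgeR adjusted p = 3.66e-06), and over 9 alternatives the log2 fold change stayed between 6.14 and 7.07 and the adjusted p between 3.42e-31 and 0.00428. The inputs held 45.4, 86.3 and 96.0 RPM, so that the m6A libraries were above the inputs and the IgG libraries below them in every clone. Its 3p arm had 35.1, 49.9 and 45.2 RPM in m6A and 14.8, 19.1 and 69.7 RPM in IgG, which overlapped. In the knockdown miR-6806-5p had 31.3, 35.7 and 39.2 RPM in scr and 47.4, 57.2 and 84.3 RPM in kd. These groups did not overlap, and the log2 value of 0.79 ± 0.20 missed the threshold (edgeR adjusted p = 0.0503, between 0.0356 and 0.289 over 8 alternatives).

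miR-6788-5p had 279, 511 and 334 RPM in m6A, 14.8, 12.7 and 26.8 RPM in IgG and 5.68, 8.91 and 8.66 RPM in input, with a log2 fold change over IgG of 4.48 ± 0.43 (edgeR adjusted p = 5.83e-05). In every clone it was the second of these 5 in m6A, behind miR-6806-5p. miR-6894-5p had 146, 214 and 283 RPM in m6A and 24.3, 15.3 and 5.36 RPM in IgG, the last from 1 read, so its ratios ran from 6.00 to 52.7 (log2 fold change 3.59 ± 0.50, edgeR adjusted p = 0.000567). miR-6891-5p had ratios of 10.9, 12.7 and 9.57 (log2 fold change 3.49 ± 0.38, edgeR adjusted p = 0.000154). miR-6797-5p had ratios of 7.31, 10.7 and 13.3 (log2 fold change 3.28 ± 0.37, edgeR adjusted p = 0.000167). Each of these 5 stayed called under every alternative run.

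The other 13 enriched members had mean ratios from 2.27 (miR-6809-5p) to 7.86 (miR-6855-5p). miR-6757-5p was among them with ratios of 2.51, 4.41 and 1.39, and miR-6839-5p with 2.20, 3.37 and 2.66. Over 9 alternatives their adjusted p reached 0.319 and 0.192, respectively, both by DESeq2. Outside the rule, miR-6858-5p, miR-6740-5p and miR-6775-5p had log2 fold changes of 3.40, 3.33 and 3.25 (edgeR adjusted p = 0.00420, 0.00183 and 0.000555) but fewer than 100 RPM in at least 1 m6A library. IgG libraries held at most 7 reads of each, and miR-6858-5p and miR-6740-5p had none in that of FTO3C3.

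**Figure D3:**
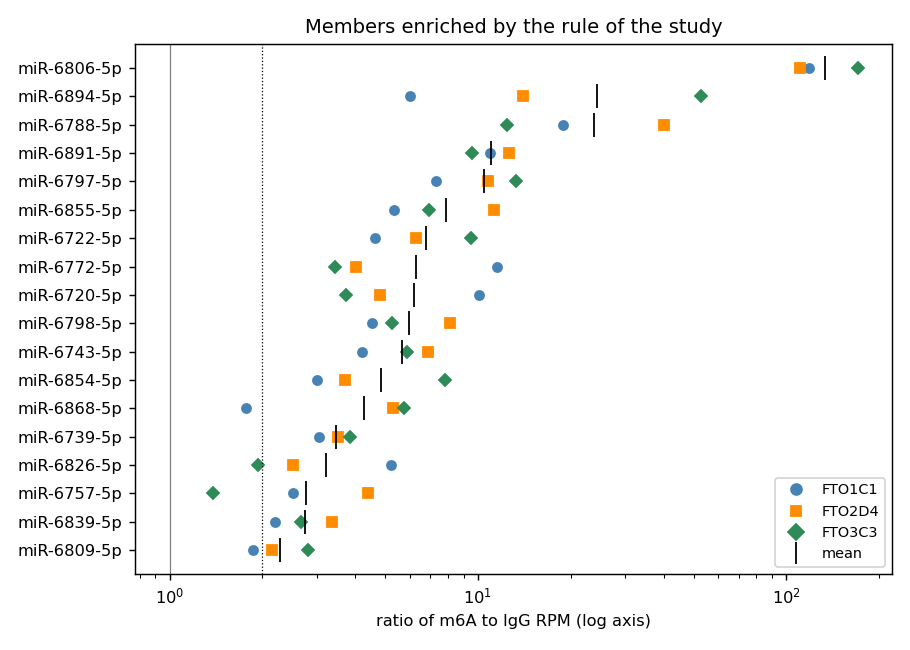
Ratio of m6A to IgG RPM in each clone (log axis) for the 18 members enriched by the rule of the study, with the mean of the 3 clones as a bar, a grey line at 1 and a dotted line at 2. miR-6806-5p lies between 110 and 171 in all 3 clones, and 14 of the 18 have all 3 points at 2 or more.

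At the other end were members with high levels in both precipitates. miR-6790-5p had 128, 115 and 157 RPM in m6A and 179, 254 and 236 RPM in IgG, and miR-6850-5p had 133, 238 and 164 RPM in m6A and 530, 187 and 440 RPM in IgG. Neither passed the test with the total as the scale (log2 values -0.74 ± 0.30 and -1.03 ± 0.45, edgeR adjusted p = 0.0806 and 0.0994). Under TMM factors, and likewise under totals without miR-6080, they were called lower in m6A together with miR-6723-5p, miR-6724-5p, miR-6763-5p, miR-6781-5p, miR-6787-5p, miR-6791-5p, miR-6805-5p, miR-6853-5p, miR-6869-5p and miR-6889-5p. Of the 6 members that rose in the knockdown, miR-6763-5p, miR-6853-5p and miR-6869-5p were thus in this list, with log2 values over IgG of -0.50, -0.44 and -0.26 on the main scale. miR-6758-5p (1.81 ± 0.36) and miR-6848-5p (2.83 ± 0.51) were higher in m6A (edgeR adjusted p = 0.00394 and 0.00250), and miR-6789-5p did not pass (0.78 ± 0.29, edgeR adjusted p = 0.0577). The call of miR-6758-5p was lost by DESeq2 (1.01, DESeq2 adjusted p = 0.132). None of the 18 enriched members was called in the knockdown by edgeR, nor by DESeq2 where it gave an adjusted p. Their lowest edgeR adjusted p there was 0.0503 and their median log2 value 0.24, and 5 of them had an unadjusted p under 0.05. Over all miRNAs tested in the knockdown, edgeR called 4.97% higher and 0.505% lower, and the median was 0.29. At an unadjusted p under 0.05, 23.9% of all miRNAs lay above 0 and 2.23% below. These counts are therefore not read as a result about the enriched members.

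The m6A to IgG values of the members varied with base composition, as did those of the other miRNAs. The members with a sequence were ordered by their share of A and divided into 4 groups of 34 or 35 tested members. From the lowest to the highest share of A, the median log2 fold change was 0.47, 0.96, 1.24 and 1.57, and 6, 12, 19 and 24 members were higher. Under TMM factors the medians were -0.28, 0.16, 0.48 and 0.80 and under totals without miR-6080 -0.31, 0.21, 0.56 and 0.86, the same order on a lower scale. Divided at the median share of A of the members, 46.8% of the other miRNAs (without members and 3p arms) at or above it were higher (median 1.14) and 27.9% of those below it (median 0.36), against 59.5% and 26.2% of the members (medians 1.33 and 0.78). With m6A set against input the medians of the 4 groups of members were 2.42, 2.32, 2.68 and 2.22, which showed no such order (rho -0.05). Over the 139 members tested against IgG, Spearman's rho with the share of A was 0.36 and Pearson's r 0.30. These are correlations across miRNAs of the same 6 libraries, which share depth, scale and control and are not independent replicates.

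Members that hold AAC or GAC had a median log2 fold change of 1.73, and 28 of 41 were higher. For the members without it the median was 0.79, and 33 of 98 were higher. Among the members below the median share of A, 7 of 11 with AAC or GAC were higher (median 2.07) against 10 of 54 without (median 0.64). Among those at or above it, 21 of 30 with AAC or GAC (median 1.53) and 23 of 44 without (median 1.12) were higher. For the other miRNAs the medians with and without these letters were 0.39 and 0.36 at the lower share of A and 1.10 and 1.17 at the higher share. For all other miRNAs, without members and 3p arms, 42.0% with AAC or GAC were higher (median 0.97) against 37.4% without (median 0.77). Members with GGGG had a median of 0.69, with 18 of 66 higher, and those without had 1.34, with 43 of 73 higher. 13 members hold both GGGG and AAC or GAC. Among the other miRNAs the median was 0.88 with GGGG and 0.87 without, and 41.2% and 39.1% were higher. Over input, the m6A values of members had a median of 2.49 with GGGG and 2.30 without, and of 2.63 with AAC or GAC and 2.35 without. Under TMM factors the medians of the members over IgG were 0.95 with AAC or GAC against 0.03 without, and -0.07 with GGGG against 0.59 without, and under totals without miR-6080 they were 1.01 against 0.08 and -0.02 against 0.69. A match of these letters is a description of the mature sequence and not a methylated site, and 5 of the 18 enriched members hold GGGG and 9 hold AAC or GAC. miR-6806-5p holds neither.

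**Figure D4:**
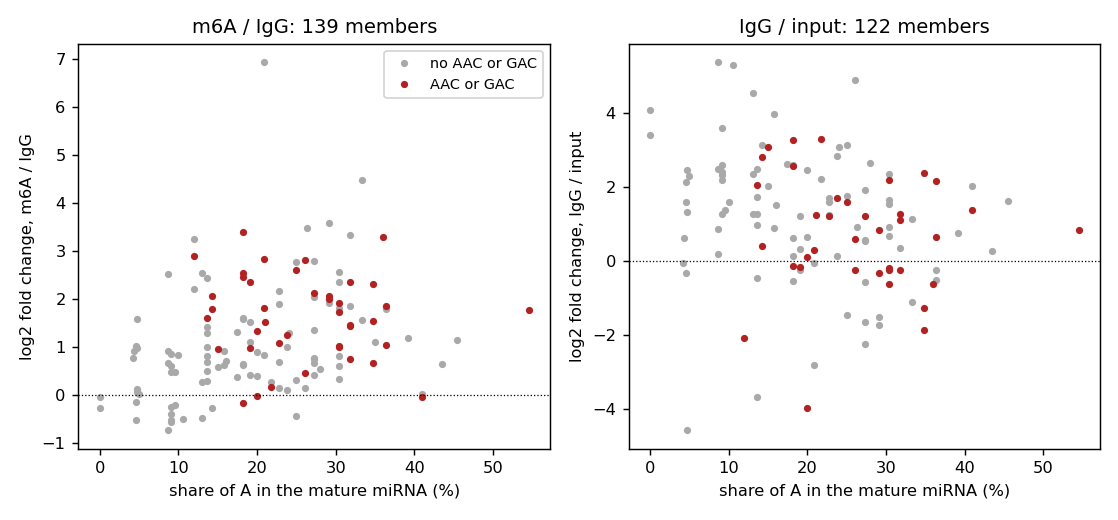
log2 fold change of m6A over IgG (left, 139 members) and of IgG over input (right, 122 members) against the share of A in the mature miRNA in percent, with a point per member, red where the sequence holds AAC or GAC. The points rise to the right on the left panel (rho 0.36) and fall on the right panel, and both panels use the same IgG libraries.

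Both precipitates were also set against the inputs, to see what either antibody and its beads held. In m6A, 149 of 167 members (89.2%) were higher and 4 were lower than in input by edgeR, against 66.8% and 10.5% of all miRNAs tested. The median log2 fold change was 2.49 for the members, 1.65 for all miRNAs and 1.3 for the 3p arms. Under TMM factors 79 were higher (47.3%) and 13 lower (7.78%), against 27% and 28.2% of all miRNAs, with medians of 0.95, 0.11 and -0.25 in the same order. With totals without miR-6080 156 were higher (93.4%) and 2 lower, against 73.3% and 6.73%. In IgG, 70 of 140 tested members were higher and 12 were lower than in input, against 36.8% and 21.8% of all miRNAs tested. The median was 1.23 for the members, 0.49 for all miRNAs and 0.90 for the 3p arms. With totals without miR-6080, 114 were higher (77.6%) and 4 lower, against 62.3% and 13.8%. These comparisons share the input libraries, and the second shares the IgG libraries with the comparison of m6A and IgG, so their values are given side by side and not as support for each other.

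Several members were high in both precipitates and scarce in input. miR-6780b-5p had 10.7, 17.1 and 12 RPM in input, 426, 347 and 392 RPM in IgG and 360, 346 and 645 RPM in m6A. Its log2 fold change was 4.87 ± 0.50 in IgG and 5.04 ± 0.48 in m6A over input (edgeR adjusted p = 9.46e-21 and 1.70e-09). miR-6763-5p had 4.26, 9.59 and 10.7 RPM in input, 252, 371 and 322 RPM in IgG and 265, 186 and 220 RPM in m6A. Both hold GGGG. miR-6790-5p (5.36 ± 0.55), miR-6879-5p (5.08 ± 0.64) and miR-6850-5p (4.81 ± 0.51) had similar log2 fold changes of IgG over input, with edgeR adjusted p of at most 2.57e-14. By share of A, the 4 groups (29 to 32 tested members) had medians of 2.13, 1.09, 1.22 and 0.67 for IgG over input from the lowest to the highest share. Members with GGGG had a median of 1.59 against 0.84 without, and the other miRNAs 1.70 against 0.27.

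miR-6816-5p and miR-6822-5p, the highest members in the inputs by their means, went the other way. They were picked for these input levels, and the same input libraries enter the fold changes below. Not every abundant member fell, as miR-6789-5p had 160, 173 and 122 RPM in input and 225, 255 and 264 RPM in m6A. miR-6816-5p fell from 1781, 2449 and 1661 RPM in input to 86.0, 100.5 and 81.6 RPM in m6A and to 56.6, 87.7 and 112.6 RPM in IgG. Its log2 fold change was -4.44 ± 0.45 in m6A and -4.58 ± 0.46 in IgG over input (edgeR adjusted p = 2.96e-09 and 1.19e-21). Its 3p arm had 26.3, 27.4 and 12 RPM in input and 118, 142 and 416 RPM in m6A, so the arms of this hairpin moved in opposite directions in every clone. miR-6822-5p fell from 1117, 823 and 946 RPM in input to 35.1, 62.4 and 103.0 RPM in m6A and 49.9, 29.2 and 160.9 RPM in IgG (log2 fold changes -3.91 ± 0.46 and -3.97 ± 0.47, edgeR adjusted p = 3.40e-08 and 5.97e-16). Neither differed between m6A and IgG beyond the spread of the clones (log2 values 0.12 ± 0.35 and -0.03 ± 0.43, edgeR adjusted p = 0.812 and 0.966). miR-6750-5p, with the seed AGGGAAC of miR-6822-5p, had 2.13, 3.43 and 6.67 RPM in input and 22.8, 31.5 and 29.6 RPM in m6A and was higher there (log2 fold change 2.77 ± 0.47, edgeR adjusted p = 8.25e-06). This call was lost by DESeq2 (1.24, DESeq2 adjusted p = 0.0986).

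miR-6772-5p separated the precipitates. It had 407, 609 and 544 RPM in input, 263, 179 and 221 RPM in m6A and 22.9, 44.5 and 64.4 RPM in IgG, so the 3 groups did not overlap and IgG was the lowest in every clone. Its log2 fold change over input was -1.24 ± 0.40 in m6A and -3.69 ± 0.47 in IgG (edgeR adjusted p = 0.00646 and 1.02e-13). The call in m6A was lost without FTO2D4 (-0.97, edgeR adjusted p = 0.0848) and with totals without miR-6080 (-0.77, 0.119). Its m6A to IgG ratio of 6.31 ± 4.49 (SD, n = 3) placed it among the 18 enriched members. miR-6806-5p (-2.80 ± 0.57) and miR-6753-5p (-2.24 ± 0.69) were also lower in IgG than in input (edgeR adjusted p = 4.50e-06 and 0.00256), the latter not without FTO2D4 (edgeR adjusted p = 0.206) or with totals without miR-6080 (0.114). miR-6883-5p was the remaining member that was lower in m6A than in input (-1.21 ± 0.45, edgeR adjusted p = 0.0159). This call was lost without FTO2D4 (-0.58, edgeR adjusted p = 0.351) and with totals without miR-6080 (-0.74, 0.159). It had 16.3, 38.4 and 23.3 RPM in input and 10.5, 6.60 and 15.9 RPM in m6A.

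**Figure D5:**
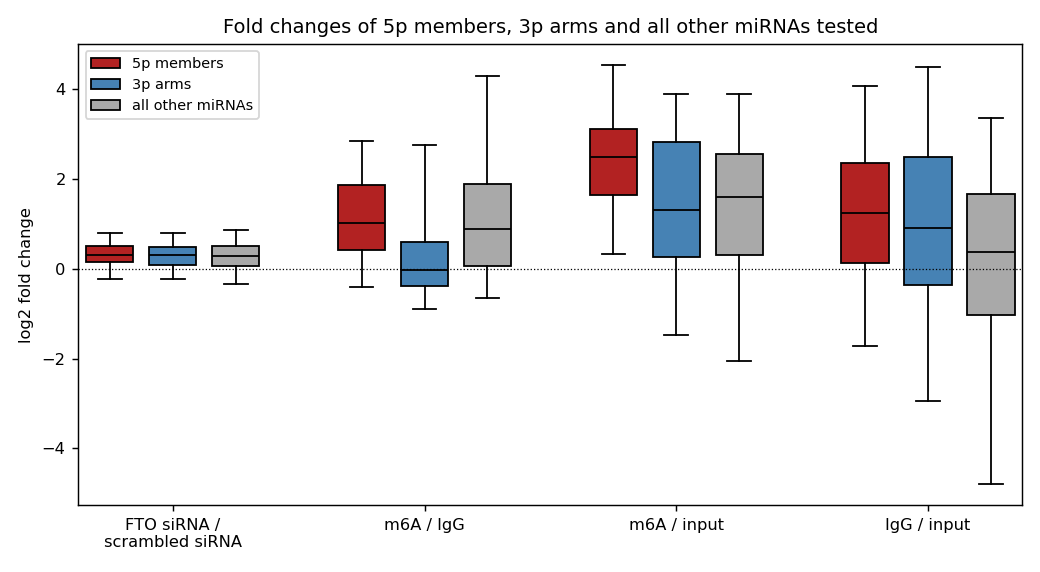
log2 fold changes in the 4 comparisons for the 5p members, the 3p arms of miR-6715 to miR-6895 and all other miRNAs tested, with the box from the lower to the upper quartile, the line at the median and whiskers at the 5th and 95th percentiles. The 3 groups have almost the same median in the knockdown, and the members have the highest median in each RIP comparison, at 1.01 for m6A over IgG against -0.04 for the 3p arms.

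The arms of 1 hairpin can be compared within a library, where the scale cancels. The hairpins used had a mean of at least 10 reads on each arm, taken over all RIP libraries, so an arm can have few reads in IgG. Over these 122 hairpins, the median log2 ratio of 5p to 3p reads was 0.31, 0.33 and 0.88 in the m6A libraries of FTO1C1, FTO2D4 and FTO3C3. It was -0.20, -0.36 and 0.00 in IgG and -0.22, -0.34 and -0.20 in input. All m6A libraries thus lay above all IgG and input libraries. Within clones and hairpins, the ratio moved from input to IgG towards the 5p arm in all 3 clones for 49 hairpins and towards the 3p arm for 33, with a median shift of 0.56. From input to m6A it was 64 and 27 hairpins, with a median shift of 1.02. From IgG to m6A the ratio moved towards the 5p arm in all 3 clones for 61 hairpins and towards the 3p arm for 14, with a median shift of 0.87. In the knockdown, over 141 hairpins, 18 moved towards the 5p arm in all clones and 17 towards the 3p arm, with a median shift of 0.02. The arms differ in base composition as given above, and the part of composition in this shift was not tested. Arms of other hairpins were not compared, so the shift is not shown to be particular to this series.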

How the data were processed

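Small RNA libraries (50-base reads, TruSeq adapters) were processed by the authors, who removed the adapter by cutadapt at an overlap of 4 bp and an error of 20%, took reads between 16 and 28 bp as candidates, and assigned each to a mature sequence of miRBase release 20 where exact matches of 7 bases or more covered 17 or more of its bases. What the authors deposited are these raw counts, 1 per miRNA and library. No genome was used for these counts. RefSeq sequences (GRCh38.p14) were joined by miRNA name.

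RPM were computed from the total of miRNA reads, and ratios within a clone, with a count of 0 in the reference set to 3 reads. The main test was the quasi-likelihood test of edgeR (glmQLFit, glmQLFTest), with totals as library sizes, filterByExpr at a minimum count of 10 and the clone as a block, over all miRNAs, with Benjamini-Hochberg adjustment at 0.05. SE is the absolute log2 fold change divided by the square root of F. Each clone gave 1 library to every group, and the clone pairs the libraries. Deviations from the group means correlated at 0.190, 0.118 and 0.165 in the knockdown and between -0.075 and 0.057 in the RIP comparisons. Libraries of 1 group differed by more than sampling noise. Whether libraries were made from separate cultures beyond the 3 clones is not given in the sources used here, so p-values measure the spread between these libraries.

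Named miRNAs were the 10 highest by mean in scr and in input, the members with the largest called change of the same direction in all clones (8 per direction for kd and m6A against IgG, 5 against input), miR-6806-5p, and members sharing their seed. Members and lists were chosen with earlier results of these data known. Alternatives were TMM factors, DESeq2, no filter, a minimum count of 50, no block, each clone left out, other cutoffs and totals without miR-6080. The test was checked on simulated counts. These held as many changes up as down, so the check does not cover a one-sided shift or the choice of scale. Versions were R 4.3.3, edgeR 4.0.16, DESeq2 1.42.0, Python 3.11.15, pandas 2.3.3 and matplotlib 3.10.9.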

Additional observations from a re-analysis of the deposited data

How the results depend on the processing

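Depth limited the IgG library of FTO3C3, which had a median of 6 reads per member. In the knockdown, TMM factors left 2 members higher, DESeq2 1 (136 members had no adjusted p) and the fit with no replicate block 2, and the medians became 0.011 with TMM factors and 0.025 with DESeq2. Leaving out a clone gave 0 to 10 higher, 0 to 3 lower and a median of 0.29 to 0.41. In m6A against IgG, TMM factors gave 37 higher and 12 lower (median 0.25), DESeq2 23 and 10 (0.22), the totals without miR-6080 36 and 12 (0.32), a minimum count of 50 30 higher (0.67), and no replicate block 1 lower. Leaving out a clone gave 38 to 64 higher, 0 to 1 lower and a median of 0.90 to 1.22. In m6A against input, TMM factors gave 79 higher and 13 lower (0.95). DESeq2 gave 67 and 13 of 167 members (0.93), against 491 and 592 of all 2174 miRNAs. A minimum count of 50 gave 94 higher, and totals without miR-6080 2 lower (2.95). Leaving out a clone gave 137 to 145 higher and 2 to 4 lower. In IgG against input, TMM factors gave 55 higher and 19 lower of 140 members (0.62), against 537 and 629 of all 1941 miRNAs. DESeq2 gave 46 higher, and totals without miR-6080 114 higher and 4 lower (2.39). A minimum count of 50 gave 27 higher and 6 lower. Leaving out a clone gave 52 to 79 higher and 7 to 12 lower. A minimum count of 50 tests fewer miRNAs, and leaving out a clone uses fewer libraries. For the other shifts the cause was not tested. Where no share over all miRNAs stands beside a count here or above, the count describes the fit and not the members.

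A cutoff of 5 or 30 RPM made 140 or 24 members expressed. A ratio over 1.5 made 18 members increased, TMM factors 1, and leaving out a clone 2 to 5. A cutoff of 15 RPM made 89 members enriched and totals without miR-6080 30. The shares of all miRNAs under these settings are not given here, so these counts describe the rule and not the members. Of 53 called changes of named miRNAs, 30 kept direction and call under every alternative run (11 of 15 in m6A against IgG, 0 of 6 in the knockdown), and 3 changed sign. These were, in m6A against input, miR-6878-5p (-0.59 with TMM factors, -0.62 with DESeq2), miR-6855-5p (-0.70, -0.73) and miR-6856-5p (-0.15, -0.18). Of the uncalled values printed, miR-6839-5p ran from -0.74 to 0.36 in the knockdown when a clone was left out. In m6A against IgG, miR-6816-5p became -0.63 with TMM factors, -0.67 with DESeq2, -0.57 with totals without miR-6080 and -0.11 to 0.39 with a clone left out, and miR-6822-5p ran from -0.58 to 0.33 with a clone left out. Of the 33 named values that were not called, 21 changed sign under at least 1 alternative. The block of clones moved the number of calls by more than 1.5 times in the knockdown alone, from 6 to 2 without it.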
